A study of Homo sapiens with 4 samples.

Results

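Peaks of TCF3 that lay deep inside protein-coding genes and shared no base with any ATOH8 peak were examined in DU145 cells. DU145 is an established human prostate cancer cell line. Of 11330 TCF3 peaks on chromosomes 1 to 22 and X, 1701 (15.01%, Wilson 95% interval 14.4 to 15.7) met the rule, out of 16281 peaks of both factors. The rule required that a peak share no base with an ATOH8 peak, that its midpoint lie inside a RefSeq GRCh38 protein-coding gene, and that it be more than 5 kb from every protein-coding gene end. The chromatin came from 4 libraries, each fixed with 1% formaldehyde for 10 min: a Flag precipitation of ATOH8 with its input, and a Myc precipitation of TCF3 with its input, with 1 library per group. There was therefore no replicate, and every interval below covers the counting of peaks, genes or windows only. The sources used here do not say how the tagged proteins were expressed, or at what level against the cells' own proteins. Each list gives a position and the authors' own score per peak, and sequencing depth is unknown. The input libraries were not analysed here, and neither was the copy number of the chromosomes.

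TCF3 is the symbol of the gene for the E proteins E12 and E47, which belong to the basic helix-loop-helix (bHLH) family. E proteins bind DNA as dimers, with themselves or with tissue-restricted bHLH proteins, at E-boxes, short sites written CANNTG. ATOH8 is a bHLH protein of the atonal group, a group whose members are known as partners of E proteins. Binding inside genes can fall on enhancers in introns, on internal promoters that start shorter transcripts, or on other genes that lie within a host gene. TCF3 has also been used as a name for TCF7L1, and the labels give only the symbol.

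Of 4 classes of annotation under the peaks, those on an internal transcript start had the highest median score, so sequences of such promoters are shown first. RefSeq (GRCh38.p14) gives a window around each annotated transcript start, of 250 bases before it and 50 after, called a start window here. In 126 of the 1701 peaks at least 1 start window lay wholly inside the peak. The 250 bases before the start are printed for 5 high-scoring such peaks at a start of the host gene itself, for 1 start of GATA3, and for the window with the most E-boxes; the last 2 were chosen after their values were seen. Each is printed 5′ to 3′ on the strand of its gene, in lower case, with every CANNTG in capitals.
PLD5, a phospholipase D family member, chr1:242524698-242524947, minus strand: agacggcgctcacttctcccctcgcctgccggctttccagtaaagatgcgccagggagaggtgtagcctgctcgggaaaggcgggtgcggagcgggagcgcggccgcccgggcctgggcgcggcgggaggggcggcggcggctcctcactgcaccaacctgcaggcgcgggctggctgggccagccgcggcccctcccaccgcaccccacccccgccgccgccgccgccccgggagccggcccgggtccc
OPCML, a neural cell adhesion protein, chr11:132943837-132944086, minus strand: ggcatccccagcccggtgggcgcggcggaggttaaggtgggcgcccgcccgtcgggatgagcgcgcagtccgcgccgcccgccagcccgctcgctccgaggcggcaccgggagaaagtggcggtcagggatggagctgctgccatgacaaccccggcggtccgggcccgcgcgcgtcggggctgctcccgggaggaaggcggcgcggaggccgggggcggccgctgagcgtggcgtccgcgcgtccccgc
CBLN2, a secreted synapse organiser, chr18:72544343-72544592, minus strand: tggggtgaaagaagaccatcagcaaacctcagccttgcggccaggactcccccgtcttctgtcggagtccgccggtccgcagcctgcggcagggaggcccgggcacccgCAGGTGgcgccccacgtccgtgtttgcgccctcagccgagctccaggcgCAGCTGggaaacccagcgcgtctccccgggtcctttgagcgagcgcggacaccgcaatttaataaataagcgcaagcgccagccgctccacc
CHODL, a C-type lectin membrane protein, chr21:18245625-18245874, plus strand: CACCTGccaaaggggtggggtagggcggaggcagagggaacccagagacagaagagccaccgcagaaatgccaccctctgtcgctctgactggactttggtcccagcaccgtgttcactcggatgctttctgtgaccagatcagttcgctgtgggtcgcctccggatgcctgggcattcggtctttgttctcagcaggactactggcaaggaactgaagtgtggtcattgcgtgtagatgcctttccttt
HDGF, a heparin-binding growth factor, chr1:156751676-156751925, minus strand: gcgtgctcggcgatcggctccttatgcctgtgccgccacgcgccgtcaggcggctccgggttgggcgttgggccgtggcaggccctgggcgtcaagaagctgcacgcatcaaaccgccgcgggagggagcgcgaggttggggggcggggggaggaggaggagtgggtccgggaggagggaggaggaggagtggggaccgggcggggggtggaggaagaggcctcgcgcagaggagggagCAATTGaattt
GATA3, a zinc-finger transcription factor, chr10:8054438-8054687, plus strand: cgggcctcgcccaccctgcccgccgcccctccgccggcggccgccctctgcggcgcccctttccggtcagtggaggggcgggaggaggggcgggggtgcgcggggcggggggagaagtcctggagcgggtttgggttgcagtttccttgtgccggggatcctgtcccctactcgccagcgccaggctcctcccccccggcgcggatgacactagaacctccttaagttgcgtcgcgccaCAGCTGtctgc
LOC651337, a long non-coding RNA inside the histone methyltransferase gene EHMT1, chr9:137788407-137788656, minus strand: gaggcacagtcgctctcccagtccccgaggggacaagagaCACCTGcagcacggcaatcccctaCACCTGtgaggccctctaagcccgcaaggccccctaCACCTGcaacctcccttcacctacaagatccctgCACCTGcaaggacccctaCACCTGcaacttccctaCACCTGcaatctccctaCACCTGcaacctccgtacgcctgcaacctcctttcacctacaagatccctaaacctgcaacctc

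The PLD5 and OPCML sequences held no CANNTG, and they were 78.8% and 79.6% G and C with 32 and 41 CpG dinucleotides. CBLN2 held CAGGTG and CAGCTG, CHODL held CACCTG at its first base, HDGF held CAATTG, and GATA3 held CAGCTG. The LOC651337 sequence held 7 copies of CACCTG and had 6 CpG dinucleotides. Of the 126 peaks with a window inside, 54 had no CANNTG in the 250 bases read. A match is a run of letters and not a measured site, and the rest of each peak was not read.

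The scores of the 1701 peaks ran from 36 to 963, with quartiles of 44, 52 and 79. The median over the whole TCF3 list was 61, and 605 of the 1701 peaks (35.6%) scored above it. TCF3-only peaks within 1 kb of a gene end had a median score of 68, those from 1 to 5 kb 57, and those between genes 61. The 97 TCF3 peaks deep inside genes that did overlap ATOH8 had a median of 76 (95% interval of the median 61 to 89), above that of the TCF3-only peaks (52 to 52). The TCF3-only deep peaks were also narrower, with a median width of 623 bp (600 to 650) against 718 bp over all TCF3 peaks (707 to 730). Deep inside genes, 5.40% of TCF3 peaks shared a base with ATOH8 (97 of 1798), against 12.5% of all TCF3 peaks (1417 of 11330).

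What was annotated under a peak went with its score. The 217 peaks over a start window (12.8%) had a median score of 74 and a median width of 926 bp. The 222 peaks over a pseudogene and no start window (13.1%) had a median score of 61. The 192 peaks over another non-coding gene and the 1070 peaks (62.9%) over nothing but the coding gene both had a median score of 52. Within the first class, the 149 peaks at a start of the host gene itself had a median of 79 (70 to 89), and the 68 peaks at a lncRNA start one of 52 (51 to 70). Exons and introns were not analysed here.

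**Figure D1:**
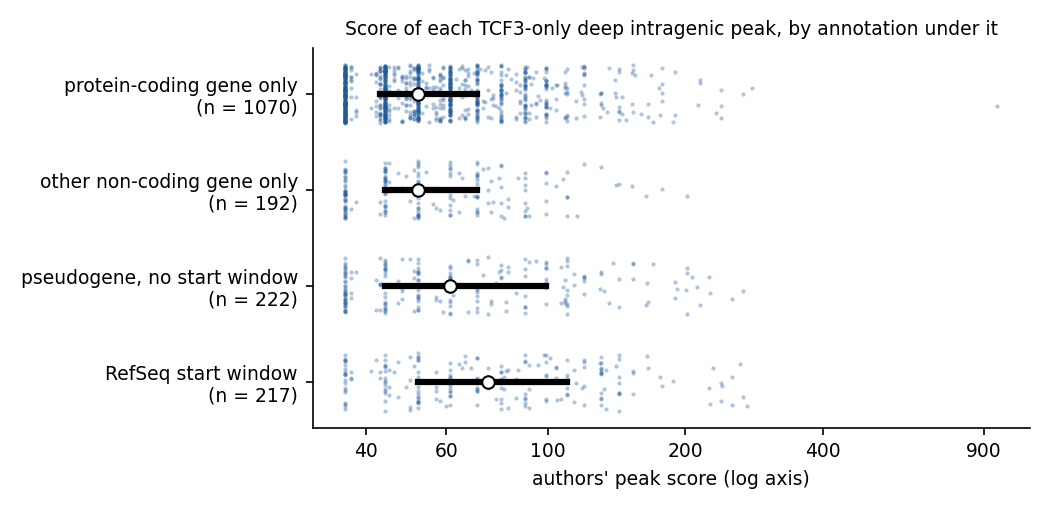
Authors' score (x axis, log scale) of each of the 1701 TCF3-only deep intragenic peaks, 1 point per peak, by the annotation under it; the white dot is the median and the bar runs from the lower to the upper quartile. The median is 74 over start windows, 61 over pseudogenes and 52 in the other 2 classes, and 1 peak, at 963, stands apart.

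The highest score, 963, belonged to a peak of 7259 bp at chr15:20300279-20307538 inside the gene model LOC124903442, which was also the widest. The TCF3 list held no score between 280 and 887, and this was the only one of the 1701 above that gap. Next came a peak in B4GALT6, a galactosyltransferase of glycosphingolipid synthesis, at 280, over no other annotated gene. The peaks at the starts printed above scored 273 in PLD5, 267 in OPCML, 264 in CBLN2, 253 in CHODL and 241 in HDGF. A peak at an internal start of DLG2, a postsynaptic scaffold protein, also scored 253. Peaks over the coding gene alone reached 267 in ZSCAN30, a zinc-finger protein, and 240 in GATA6, an endodermal transcription factor. They also reached 240 in CTNND2, which encodes delta-catenin, and in TRIO, a guanine nucleotide exchange factor, and 233 in AKAP6, a kinase anchoring protein. Peaks at lncRNA starts reached 240 in CELF4 and in CDH18, 230 in ARHGEF33 and 227 in LOC107984449. Of the 20 highest-scoring peaks, the remaining 3 lay over pseudogenes in KATNAL2, XKR4 and CADM2 and are described below.

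The rule removed every peak that shares a base with ATOH8, so distances to ATOH8 are a description. The nearest ATOH8 peak was a median of 211516 bp away, 92 of the 1701 (5.41%) had one within 10 kb and 14 had one within 1 kb. The 3 nearest were a peak at an internal start of RBPJ, the DNA-binding factor of the Notch pathway, 51 bp from an ATOH8 peak; a peak in SETD1B, a histone methyltransferase gene, at 59 bp; and a peak in LUZP1 at 168 bp. Their scores were 143, 143 and 76. Separately, 490 of the 1701 peaks (28.8%) lay within 10 kb of another one of the set.

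The median distance to a gene end was 30969 bp. Just inside the limit were peaks in SLC47A2 at 5031 bp, LPIN2 at 5037 bp and NR2F1 at 5041 bp, with scores of 45, 70 and 188. Just outside it were peaks in ADAMTS7 at 4996 bp, IKZF1 at 4994 bp and ZIC4 at 4993 bp, with scores of 70, 131 and 89. The deepest lay 1139466 bp inside RBFOX1, a splicing regulator of neurons and muscle, with a score of 89. It was followed by peaks in PTPRD at 1127857 bp, in DLG2 at 1082366 bp, and 2 in CNTNAP2 at 1050758 and 1032218 bp, which scored between 36 and 52.

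The 1701 peaks lay in 1153 of the 14145 coding genes long enough to have an interior, meaning a stretch more than 5 kb from every coding-gene end (8.15%). Together these interiors covered 1084 Mb, so there were 1.57 peaks per Mb (exact Poisson 95% interval 1.496 to 1.65). Genes that held a peak were longer, with a median of 118.5 kb against 39.6 kb for genes that held none, and the share of genes with a peak went from 3.55% at 10 to 50 kb to 69.6% above 1000 kb. Per Mb of interior the order was not the same: the rate was 2.79 (2.49 to 3.12) in genes of 10 to 50 kb, lowest at 1.14 (1.03 to 1.27) in genes of 200 to 500 kb, and 1.87 (1.61 to 2.17) above 1000 kb. Most hosts, 850, held 1 peak, 186 held 2 and 63 held 3.

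The genes with the most peaks were PTPRN2 and WWOX with 17 each, ASIC2 with 13, TMEM132D and LDLRAD4 with 11, DLGAP2 with 10, CDH4 with 9, NRXN3, NTM and MYT1L with 8, and OPCML and DPP6 with 7, the 2 highest-scoring of 6 genes with that number. PTPRN2 encodes a receptor-type phosphatase of secretory vesicles. Its 17 peaks scored from 36 to 215 (median 79), none was at a start window, and they lay 0.697 to 1.66 Mb from the end of chromosome 7. WWOX, an oxidoreductase gene that spans a common fragile site, had 17 peaks with scores of 36 to 120 (median 50), of which 13 lay over the coding gene alone. ASIC2, an acid-sensing ion channel gene, had 13 peaks of 36 to 99. DLGAP2, which encodes a postsynaptic scaffold protein, had 10 peaks of 36 to 164 (median 89), and CDH4, which encodes R-cadherin, had 9 peaks of 36 to 176, 2 of them at start windows. Spacing differed between these genes: the median gap between neighbouring peaks was 3.91 kb in MYT1L, 7.55 kb in PTPRN2 and 8.61 kb in WWOX, and 85.3 kb in OPCML, 107 kb in NTM and 166 kb in DPP6.

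Among genes with at least 3 peaks, a ranking per Mb of interior favours short genes by construction, and those at its top were short. HMX1, a homeobox factor of eye and ear development, had 3 peaks in 15.8 kb of interior, and JAG2, a Notch ligand, had 3 in 17.8 kb. CSNK1D, a casein kinase of the circadian clock, POTEB3, LRRC37B, the olfactory receptor gene OR6N1, TMEM132E, the mechanosensitive channel gene PIEZO1 and the adhesion gene NECTIN1 followed with 3 or 4 peaks each. EBF3, a transcription factor of the early B-cell factor family, held 6 peaks in 119 kb, with scores of 36 to 178. The TCF3 gene itself held 2 of the peaks, with scores of 47 and 44, and the ATOH8 gene held none.

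Genes with a deep peak also more often had a TCF3 peak at an end. In this measure, which the rule did not use, 440 of the 1153 host genes (38.2%, 35.4 to 41.0) had a TCF3 peak with its midpoint within 5 kb of an end, against 3442 of 12992 genes without a deep peak (26.5%, 25.7 to 27.3). The direction was the same in every length class, and the gap was widest among genes of 100 to 200 kb, at 43.4% (37.5 to 49.4) and 29.4% (27.3 to 31.6). At 200 to 500 kb the shares were 37.5% (31.5 to 43.9) and 29.9% (26.9 to 33.0), with overlapping intervals. Above 500 kb they were 38.5% (31.1 to 46.5) and 26.5% (20.4 to 33.7), which also overlapped. ATOH8 peaks at the ends of the same genes showed no such gap, with 23.3% (20.98 to 25.9) of hosts and 24.1% (23.3 to 24.8) of the other genes.

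The strand was known for the single host of 1328 peaks, and 632 of these (47.6%, 44.9 to 50.3) lay nearer to the 5′ end of the gene than to its 3′ end. Pooled over hosts of all lengths, rates were higher toward both ends. From the 5′ end they were 2.51 per Mb (2.09 to 2.995) at 5 to 10 kb, 2.20 at 10 to 20 kb and 1.38 (1.27 to 1.502) beyond 100 kb. From the 3′ end they were 2.79 (2.33 to 3.30), 2.21 and 1.31 (1.20 to 1.42). Short hosts have interior only near their ends, and hosts of 10 to 50 kb had 2.79 per Mb against 1.14 at 200 to 500 kb. Position was not compared within classes of host length, so the 2 cannot be told apart here. Peaks over start windows followed the 5′ end alone, with 0.588 per Mb (0.394 to 0.844) at 5 to 10 kb from it and 0.189 (0.0863 to 0.358) at 5 to 10 kb from the 3′ end.

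Position on the chromosome went with a larger difference. Within 5 Mb of the end of a chromosome's annotated span the rate was 4.75 per Mb (4.29 to 5.25), against 1.93 at 5 to 10 Mb and 1.09 (0.989 to 1.21) beyond 50 Mb. These terminal stretches held 391 of the 1701 peaks (22.99%) on 7.59% of the interior. The 1070 peaks over the coding gene alone showed the same order, with 3.197 per Mb (2.82 to 3.61) and 0.654 (0.573 to 0.743). ATOH8-only deep peaks did too, with 1.36 (1.12 to 1.64) and 0.279 (0.227 to 0.340), so the terminal excess was not particular to TCF3. Among chromosomes, the rate was highest on 21, at 3.34 per Mb (2.34 to 4.62), and was 2.83 on 17 and 2.75 on 16. It was lowest on X, at 0.0911 per Mb (0.0248 to 0.233). The 4 peaks on X lay in PAK3, PCDH11X, FRMPD4 and ZC3H12B, and ATOH8-only deep peaks on X numbered 2. How copy number bears on these rates was not tested.

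**Figure D2:**
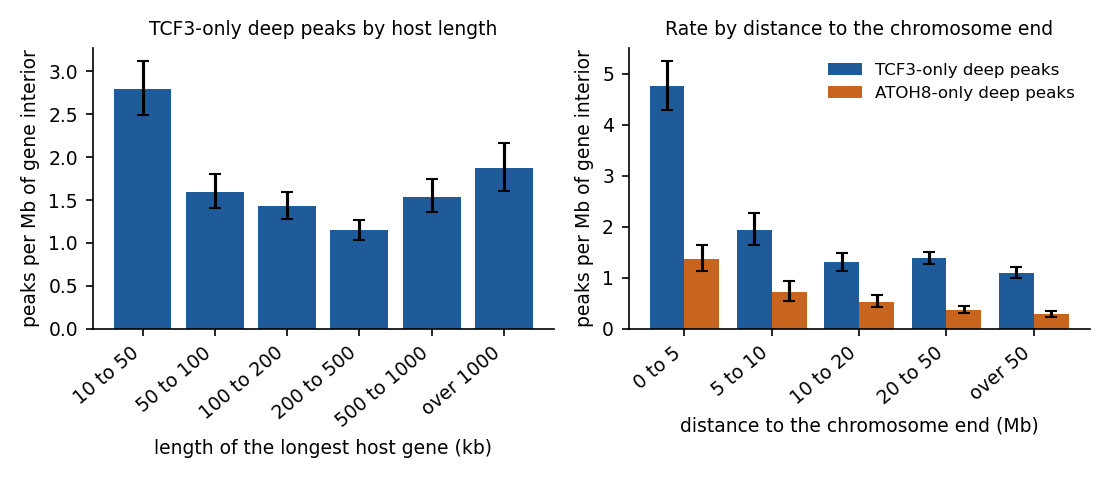
Left, TCF3-only deep peaks per Mb of gene interior (y axis) by the length of the host gene in kb; right, the same rate by distance to the chromosome end in Mb, beside ATOH8-only deep peaks. Bars start at 0 and error bars are exact Poisson 95% intervals; the TCF3-only rate is 4.75 per Mb in the last 5 Mb and 1.09 beyond 50 Mb.

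Pseudogenes often lay under these peaks and rarely under the ATOH8 peaks of the same compartment. Of the 1701 peaks, 231 (13.6%, 12.03 to 15.3) lay over a pseudogene, against 3 of 506 ATOH8-only deep peaks (0.593%, 0.202 to 1.73) and 3 of the 97 deep peaks of both factors. The overlap was not particular to deep peaks. Among TCF3-only peaks between genes the share was higher, at 28.6% (27.2 to 30.0). It was 6.38% at 1 to 5 kb from a gene end and 1.35% within 1 kb. Counted by pseudogene, 226 of the 4649 in gene interiors (4.86%) held a TCF3-only peak and 11 (0.237%) an ATOH8 peak. The direction was the same outside the interiors, on pseudogenes that the rule did not use, where 1271 of 11809 (10.8%) had a TCF3 peak and 141 (1.19%) an ATOH8 peak. With 11330 TCF3 peaks against 4951 ATOH8 peaks, shares counted by pseudogene do not compare the factors peak for peak. Processed pseudogenes are copies of spliced messenger RNA that were inserted into the genome, as a rule without the promoter of the parent gene. Because such copies resemble the parent and each other, reads can map to several places, and the sources used here do not say how the authors treated such reads.

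The share with a TCF3-only peak was higher for longer pseudogenes. It was 1.63% of those under 500 bp, 5.14% at 500 to 1000 bp, 8.76% at 1000 to 2000 bp and 14.5% at 2000 bp or more. ATOH8 peaks covered 0.0, 0.0843, 0.0 and 2.5% of the same classes. The 226 had a median length of 1180.5 bp, against 490 bp for pseudogenes with no peak. Longer pseudogenes offer more bases to share with a peak, and no rate per kb was computed. The differences by length are therefore a description. Among the 128 of 1000 bp or more, the peak reached over an end in 87 (68.0%, 59.5 to 75.4) and covered the pseudogene whole in 3. The peak midpoint lay beyond the pseudogene or in its outer 25% at either end in 41 of 70 at 1000 to 2000 bp (58.6%, 46.9 to 69.4) and in 46 of 58 at 2000 bp or more (79.3%, 67.2 to 87.7). No value for peaks placed without regard to the pseudogene was computed, so these shares are a description.

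**Figure D3:**
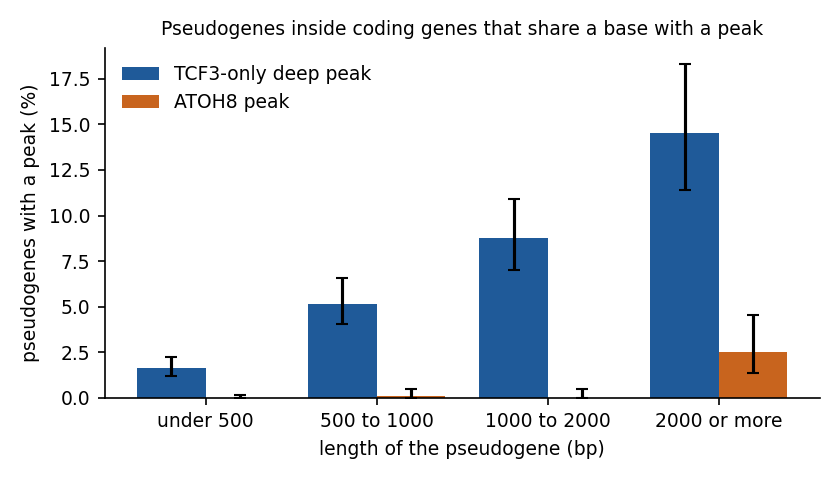
Share of pseudogenes inside coding genes that share a base with a peak (y axis, percent) by pseudogene length in bp, for TCF3-only deep peaks and for ATOH8 peaks; error bars are Wilson 95% intervals. The TCF3-only share is 1.63% under 500 bp and 14.5% at 2000 bp or more, and the ATOH8 share is 2.5% in the longest class. Longer pseudogenes offer more bases to share, and no rate per kb was computed.

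The highest-scoring of these were ELOA3BP in KATNAL2, a microtubule-severing protein gene, at 267, SBF1P1 in XKR4 at 253, NUP50P3 in CDH18 at 240, THAP12P2 in the adhesion gene CADM2 at 226 and PAICSP4 in CSMD1 at 225. Of the 226, 168 were named after a protein-coding gene, so that they could be grouped by parent; these groups were formed after the values were seen and are described without a test. The most frequent parent was KRT8, a keratin of simple epithelia, with a peak on 10 of its 20 pseudogenes in interiors. The highest scores on them were 164 on KRT8P19 in TAFA2, 94 on KRT8P33 in CEP120, and 70 on KRT8P36 in DZIP1L and on KRT8P48 in PPP2R2B, and the lowest was 37 on KRT8P15 in ICA1L. On KRT8 pseudogenes elsewhere in the genome, 13 of 32 had a TCF3 peak. KRT18, the keratin that pairs with KRT8, had a peak on 4 of 14 pseudogenes in interiors and on 16 of 53 elsewhere. RPS2, a ribosomal protein gene, had 5 of 27 and 15 of 28, HMGN1, a nucleosome-binding protein gene, 5 of 20 and 3 of 18, and FTH1, the ferritin heavy chain gene, 3 of 10 and 5 of 17. HMGN2 had 3 of 18 and only 1 of 30 elsewhere. Over all pseudogenes the TCF3 shares were 4.86% in interiors, 8.76% for those of 1000 to 2000 bp there, and 10.8% elsewhere. The groups were not compared within classes of length. None of the pseudogenes of the parents named here had an ATOH8 peak in either place. Over all pseudogenes the ATOH8 share was 0.237% in interiors and 1.19% elsewhere, so groups of this size say little about ATOH8.

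The parent genes themselves were unlike one another. Within 5 kb of the KRT8 gene the highest TCF3 score was 36 and the highest ATOH8 score was 108. RPS2 and FTH1 had no listed TCF3 peak in that range and highest ATOH8 scores of 102 and 77, and KRT18 had no listed peak of either factor. HMGN1 had both, at 107 for TCF3 and 63 for ATOH8. PFN1, which encodes the actin-binding protein profilin, had 4 of 6 pseudogenes with a peak, and all of those lay in NBPF genes on chromosome 1: PFN1P4 in NBPF11 at 190, PFN1P6 in NBPF15 at 143, PFN1P3 in NBPF20 at 133 and PFN1P8 in NBPF12 at 99. NBPF genes are near-identical copies of each other, and the assignment of reads that fit several of them was not tested. Pseudogenes of ribosomal protein genes as a whole had a peak at 23 of 655 (3.51%), not compared within classes of length.

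Start windows in gene interiors, each of 300 bases, were covered at a rate near the 4.86% of pseudogenes of any length. Pseudogenes under 500 bp were covered at 1.63%. Of 5793 windows, 283 (4.89%) shared a base with a TCF3-only deep peak and 318 (5.49%) with an ATOH8 peak. By peak, however, 176 of 506 ATOH8-only deep peaks (34.8%, 30.8 to 39.0) lay at a start window against 12.8% (11.3 to 14.4) of the TCF3-only ones. Coding-gene windows were covered in 181 of 3310 (5.47%) by TCF3-only peaks and in 260 (7.85%) by ATOH8, and lncRNA windows in 102 of 2483 (4.11%) and 58 (2.34%). Over whole lncRNA genes, 236 of 3943 (5.99%) held a TCF3-only peak and 141 (3.58%) an ATOH8 peak. By peak, 279 of the 1701 TCF3-only peaks (16.4%) lay over a lncRNA gene. The same share was not computed for the shorter list of ATOH8-only deep peaks.

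The windows with a TCF3-only peak were rich in G and C. Their median GC content was 68.7%, with 28 CpG dinucleotides per 300 bases, against 49.0% and 5 in windows with neither factor and 69.3% and 29 in windows with ATOH8 and no TCF3. The share of windows with a TCF3-only peak was 0.0974% below 40% GC, 4.05% at 50 to 60%, 8.25% at 60 to 70% and 18.2% (15.3 to 21.5) at 70 to 80%. For ATOH8 it was 0.0, 1.92, 11.6 and 26.0% in the same classes. Above 80% GC the shares were 22.8% (15.7 to 31.9) for TCF3-only peaks and 18.8% (12.4 to 27.5) for ATOH8. Sequencing libraries can differ in how they cover GC-rich DNA, and that part was not tested.

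Taken over all GC classes, E-boxes were not more frequent in the windows that shared a base with a TCF3-only peak. The letters CANNTG, which read the same on both strands, stood in 56.5% of them (50.7 to 62.2), in 77.1% of windows with neither factor, in 70.4% of windows with ATOH8 and no TCF3, and in 68.7% of all 34961 RefSeq start windows. GC content moves with this share, so windows were compared within GC classes. At 60 to 70% GC the shares were 64.2% (53.3 to 73.8) with a TCF3-only peak, 73.9% (70.7 to 76.8) with neither factor and 72.2% (62.5 to 80.1) with ATOH8. At 70 to 80% GC they were 46.7% (37.6 to 56.1), 49.7% (44.3 to 55.1) and 66.7% (57.1 to 75.1). Sharing 1 base was enough here, so some of these letters may lie outside the peak. Of the 158 windows wholly inside a TCF3-only peak, 58.9% (51.1 to 66.2) held CANNTG. For these the share was 70.6% (57.0 to 81.3) at 60 to 70% GC and 54.1% (41.7 to 66.0) at 70 to 80% GC. In both GC classes the interval overlapped that of windows with neither factor. Above 80% GC, 3 of 23 windows with a TCF3-only peak held the letters (13.04%, 4.54 to 32.1) against 27 of 59 with neither factor (45.8%, 33.7 to 58.3). CAGCTG, an E-box and so counted in CANNTG too, differed between the sets at 70 to 80% GC, with 11.2% (6.53 to 18.6) of windows with a TCF3-only peak, 12.3% (9.20 to 16.4) with neither factor and 32.4% (24.1 to 41.9) with ATOH8. At 60 to 70% GC the shares were 19.8% (12.5 to 29.7), 26.8% (23.8 to 29.96) and 25.8% (18.1 to 35.3), and at 50 to 60% they were 26.3%, 26.6% and 29.6%, with intervals that overlapped. In windows wholly inside a TCF3-only peak, CAGCTG stood in 25.5% (15.6 to 38.9) at 60 to 70% GC and 13.1% (6.80 to 23.8) at 70 to 80% GC. The share of CAGCTG over all start windows was 18.0%.

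CACCTG or its reverse complement CAGGTG, also a form of CANNTG, stood in 23.3% (18.8 to 28.6) of windows with a TCF3-only peak, 21.04% with neither factor, 30.0% with ATOH8 and 20.6% of all. CACGTG, another form, stood in 4.24%, 4.82%, 11.3% and 7.27%. GGGCGG, a GC-box that cannot overlap an E-box by its whole length and was searched on both strands, stood in 66.8%, 22.1%, 75.8% and 45.0%, and at 70 to 80% GC in 88.8%, 90.7% and 90.2% of the first 3 sets. The E-box search covered start windows alone. In the other 1484 peaks no E-box was searched, and the only sequences read were those of microRNA genes, given below.

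**Figure D4:**
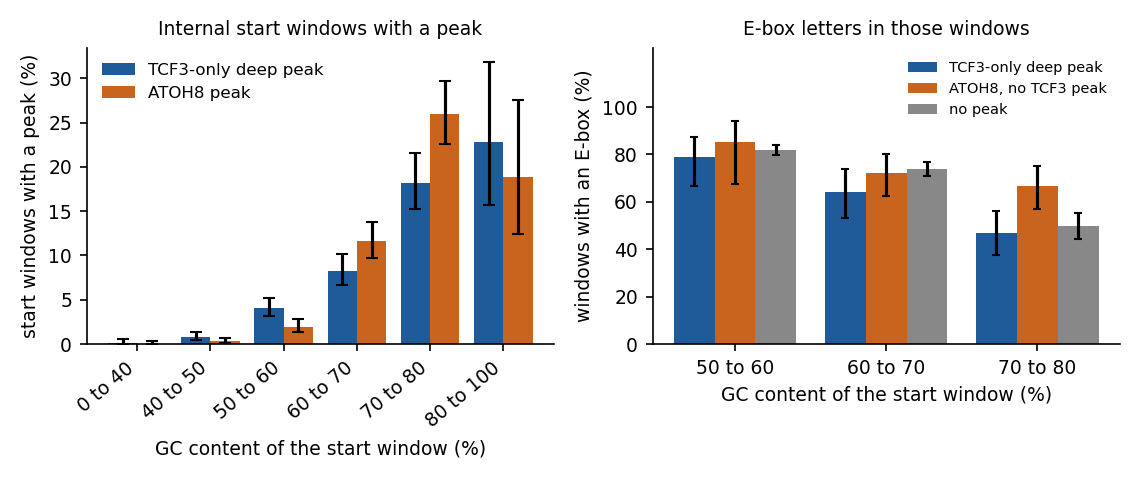
Left, share of internal RefSeq start windows with a TCF3-only deep peak or an ATOH8 peak (y axis, percent) by GC content of the window; right, share of windows that hold CANNTG, by GC content and by the peak over them, with Wilson 95% intervals. At 70 to 80% GC the E-box share is 46.7% with a TCF3-only peak, 49.7% with no peak and 66.7% with ATOH8 alone. A window counts where it shares at least 1 base with the peak.

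Over microRNA genes lay 25 of the 1701 peaks (1.47%), on 27 of the 803 microRNA genes in interiors (3.36%), while ATOH8 peaks lay on 8 (0.996%). ATOH8-only deep peaks numbered only 506 and their share over microRNA genes was not computed. The shares of genes therefore do not compare the factors peak for peak. From RefSeq 38 mature sequences were read, with 37 distinct seeds, the seed being bases 2 to 8, the part that pairs with targets. They did not cover all of the 27 genes, and MIR3150A and MIR3150B were without one. Mature sequences of 4 of the higher-scoring hosts, and the pair that shares a seed, are shown with the seed in capitals.
hsa-miR-7151-5p, in CTNNA3, chr10:67403388-67403410, minus strand: gAUCCAUCucugccuguauuggc
hsa-miR-339-5p, in CHLSN, chr7:1022990-1023012, minus strand: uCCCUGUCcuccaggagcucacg
hsa-miR-708-5p, in TENM4, chr11:79402077-79402099, minus strand: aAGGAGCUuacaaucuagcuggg
hsa-miR-218-5p, in SLIT3, chr5:168768211-168768231, minus strand: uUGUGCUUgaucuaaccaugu
hsa-miR-499a-3p, in MYH7B, chr20:34990445-34990466, plus strand: aACAUCACagcaagucugugcu
hsa-miR-499b-3p, in MYH7B, chr20:34990406-34990427, minus strand: aACAUCACugcaagucuuaaca

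The peaks over these genes scored 178 in CTNNA3, an alpha-catenin gene, 153 in CHLSN, 99 in TENM4, a teneurin gene, 74 in SLIT3, a guidance ligand gene, and 70 in MYH7B, a myosin heavy chain gene. The 499a and 499b genes lie on opposite strands of 1 site under 1 peak, so their shared seed is not a second instance. Other peaks lay over microRNA genes in NDUFAF6, RBMS1, B9D1 and RUBCN, with scores of 70 to 82. Hairpins under these peaks had a median GC content of 63.6% (23 of the 27 with a sequence), against 50.5% for those with neither factor.

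The host genes were read against 14 lists of 585 genes, of which 536 had an interior, and 12 of the lists are reported. The rates of 10 of these had intervals that included the 1.57 per Mb of all interiors. The intervals take peaks as independent, though 490 of the 1701 lay within 10 kb of another, so they may be too narrow. Adhesion genes of the cadherin and catenin families had 34 peaks in 12 of 42 genes, or 2.71 per Mb (1.87 to 3.78), beside the 8.15% of all genes that held a peak. The cadherin gene CDH4 held 9 peaks in 678 kb of interior, 2.57 to 3.06 Mb from the end of chromosome 20. How far single genes such as CDH4 carried the rate of this list was not tested. The highest scores were 240 in CDH18, a cadherin, 240 in CTNND2 and 178 in CTNNA3. The 40 very long neuronal and fragile-site genes had 114 peaks in 24 genes, at 2.13 per Mb (1.75 to 2.55), led by OPCML at 267, DLG2 at 253 and CSMD1 at 225. The list was drawn up for length (median 1203 kb), and all genes above 1000 kb had 1.87 per Mb (1.61 to 2.17), with an overlapping interval, and held a peak in 69.6%. Of the 12, receptor tyrosine kinase and MAPK genes had the lowest rate, 0.772 per Mb (0.251 to 1.80).

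**Figure D5:**
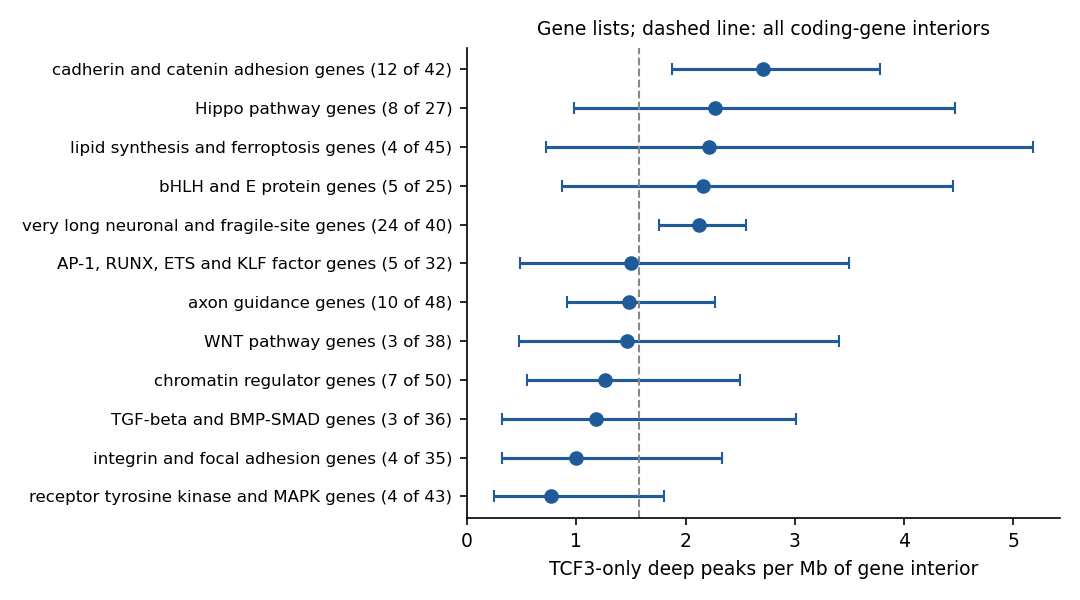
TCF3-only deep peaks per Mb of gene interior (x axis) for each of 12 gene lists, with exact Poisson 95% intervals; the numbers after each name are the genes with a peak of those with an interior, and the dashed line is the rate over all interiors. Cadherin and catenin genes stand at 2.71 per Mb, above the 1.57 of all interiors. The intervals take peaks as independent, and the part of single genes was not tested.

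Among bHLH genes, 5 of 25 held a peak (2.16 per Mb, 0.868 to 4.45), with scores of 61 in NPAS3, 61 in TCF4, another E protein gene, and 58 in SIM2. Of all genes with an interior 8.15% held a peak, and of those of 100 to 200 kb 13.5%. The next 3 lists had rates of 2.27, 1.48 and 1.27 per Mb, with intervals that included 1.57. Hippo pathway genes, of median length 113.5 kb, had 8 of 27 (29.6%, 15.9 to 48.5). Their scores were 225 at the start of FRMD6-AS1 in FRMD6, 131 in AMOTL1 and 109 over a pseudogene in TAOK3. Axon guidance genes had 10 of 48, with 215 in the ephrin receptor gene EPHA6 over a pseudogene, 160 in SLIT3 and 120 at an internal start of ROBO1, the receptor of SLIT ligands. Chromatin regulators had 7 of 50, with 170 in the methyltransferase gene KMT2C and 143 in SETD1B.

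Lipid synthesis and ferroptosis genes, the subject named in the title of the series, had a peak in 4 of 45 (2.22 per Mb, 0.721 to 5.18), near the 8.15% of all genes. The highest scores were 87 in LPCAT1, a lysophospholipid acyltransferase, 44 at an internal start of ACACA, the acetyl-CoA carboxylase of fatty acid synthesis, and 43 over a pseudogene in SCD5, a stearoyl-CoA desaturase. In the remaining lists, 4 of 35 integrin and focal adhesion genes, 3 of 36 TGF-β and BMP genes, 3 of 38 WNT genes, 4 of 43 receptor tyrosine kinase and MAPK genes and 5 of 32 AP-1, RUNX, ETS and KLF factor genes held a peak. Their highest scores were 72 in BCAR1, 66 in BMPR2, 61 in DAAM2, 120 over a pseudogene in NF1 and 91 in FLI1. No interval of the 5 lists lay clear of 1.57 per Mb.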

How the data were processed

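ChIP-seq peak lists for Flag-ATOH8 and Myc-TCF3 in DU145 cells were analysed. Each peak has a position and a score, the latter the authors' deposited value. No label or header names an aligner, a peak caller or its threshold, defines that score, or says how inputs were used; none of this is given in the sources used here. The build is hg38 (submitters' processing notes), and positions are printed as listed, with no source saying if they start at 0 or 1. The TCF3 list used here has no score between 280 and 887, and it may be held in part. Factor names in the list names tied each to its library.

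Genes came from the RefSeq table of GRCh38.p14 (19974 protein-coding genes on chromosomes 1 to 22 and X), and start windows, strands and microRNAs from RefSeq sequence tables of the same build; 930 of the 1153 host genes had a strand there. Overlap meant at least 1 shared base. Shares have Wilson, rates exact Poisson and medians order-statistic 95% intervals. The scripts ran in Python 3.11.15 with pandas 2.3.3, numpy 2.4.6 and scipy 1.17.1, figures came from matplotlib 3.10.9, and the placement of peaks was tested on simulated data. Named were the 20 highest scores, the 12 hosts with the most peaks (ties by score), the 10 densest hosts with at least 3, the top 3 hosts of each list, the 3 peaks nearest ATOH8, 3 on each side of 5 kb, the 5 deepest and up to 10 over small RNA genes; others were named after their values were seen. The peaks and lists were chosen with earlier results of these data known. The planned E-box search of whole peaks needs the genome sequence and was not run, and searches of start windows, pseudogenes, microRNAs and chromosome ends were added after seeing the data. Alternatives moved the depth limit, the gene ends, the ATOH8 margin and the score range, and left out dense 1 Mb bins or peaks over start windows. Results of 2 gene lists are not reported here.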

Additional observations from a re-analysis of the deposited data

How the results depend on the processing

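With 1 library per factor, no replicate could be left out. No paired analysis was possible because each group has 1 library. Of 108 values of the main results recomputed under alternatives, 81 moved by less than their interval or by less than 1.5 times for a count, and 27 moved by more. With the ends of all annotated genes in place of coding ones, 808 peaks in 625 genes remained within the rule, at 0.838 per Mb and 2.88 per Mb in the last 5 Mb of chromosomes, and 47 listed genes held a peak; shares over pseudogenes and start windows cannot be formed there, since those genes' own ends are left out. The higher-scoring 50% of the TCF3 list gave 646 peaks in 521 genes, with a median score of 89 and width of 765 bp, 0.596 per Mb, 1.75 in the last 5 Mb, 58 listed genes and 36.4% over a non-coding gene or pseudogene. It covered 2.97% of start windows, of which 50% held CANNTG, 2.39% of pseudogenes and 1.49% of microRNA genes. A limit of 2 kb gave 1.93 per Mb, 5.595 in the last 5 Mb and 28.2% over a non-coding gene or pseudogene, and one of 10 kb gave 1.46 per Mb. Without the 56 bins of 1 Mb that held 20 or more TCF3 peaks the rates were 1.46 and 3.92 per Mb. Without peaks over start windows (added after seeing the data) the rates were 1.37 and 4.25 per Mb, the median width 598 bp and the share over a non-coding gene or pseudogene 27.9%. Rates fall with the number of peaks kept, by construction. Depth is unknown, so a gene without a listed peak is not shown to lack binding.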
